A study of Sus scrofa with 48 samples.

Results

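The Toll-like receptors TLR1 to TLR10 were followed in the whole blood of 48 pigs by a single-colour porcine oligonucleotide array. The array files held 19 spots named after these 10 receptors among 60306 non-control spots, and 17 of them, covering 9 receptors, were among the 37113 spots of the normalized table. The pigs were castrated French Large White males of the 8th generation of a divergent selection on residual feed intake (RFI), the feed eaten beyond what growth and maintenance require. Each group held 12 pigs aged 132 days. The low RFI line (RFIneg) and the high RFI line (RFIpl) were each split between an HF diet, rich in fat and fiber through wheat straw and plant oils in place of cereals, and an LF diet, low in both. Blood was taken at slaughter in the fed state. Every pig came from a selected line and no unselected pig was included, so a difference between lines has no outside reference.

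Toll-like receptors are membrane proteins of the innate immune system that recognize conserved microbial structures. TLR1, TLR2, TLR4, TLR5, TLR6 and TLR10 sit at the cell surface, where TLR2 pairs with TLR1 or TLR6 to bind bacterial lipopeptides, TLR4 senses lipopolysaccharide together with CD14 and LY96, and TLR5 senses flagellin. TLR3, TLR7, TLR8 and TLR9 lie in endosomes and sense nucleic acids. Most signal through the adaptor MYD88, the IRAK kinases and the ubiquitin ligase TRAF6, while TLR3 uses TICAM1. In blood, TLR2, TLR4 and CD14 are abundant in monocytes and neutrophils, and TLR1 and TLR10 are also found in B cells.

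The 60-base probes for TLR2 and TLR6 and 2 of the 5 for TLR4, 1 with a negative and the 1 with a positive line estimate, are shown because the line difference of TLR2 rests on a pair of separate sequences, because the TLR4 probes did not all move one way, and because the TLR6 probes did not vary together. They are printed 5′ to 3′ in lower case, as deposited.
TLR2 A_72_P088356: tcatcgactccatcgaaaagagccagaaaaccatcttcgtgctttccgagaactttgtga
TLR2 O12067: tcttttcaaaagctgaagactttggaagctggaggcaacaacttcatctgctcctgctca
TLR4 A_72_P444577: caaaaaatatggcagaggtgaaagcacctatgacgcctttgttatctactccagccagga
TLR4 A_72_P419074: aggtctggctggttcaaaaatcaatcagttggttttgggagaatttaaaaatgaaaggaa
TLR6 A_72_P088166: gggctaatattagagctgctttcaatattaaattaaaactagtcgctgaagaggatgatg
TLR6 O10727: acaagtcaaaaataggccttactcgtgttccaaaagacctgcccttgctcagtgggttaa
No pair of probes of different receptors shared a run of more than 9 bases. The TLR3 probes shared 48 of their 60 bases and the TLR7 spots carried the same sequence, so neither pair gives independent readings of its gene.

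All values below are log2 intensities relative to the median of their array, and a gene value is the mean of its probes in the normalized table. Levels are compared between pigs and not between probes. A gene or probe was called differentially expressed (DE) when its adjusted P-value from limma, corrected over all genes or all probes tested, was under 0.05. In whole blood, fewer cells of a type and less RNA per cell cannot be told apart. Each of 6 slides held 2 pigs of each group. Outside the control spots no reading was saturated. The 10 receptors differed in how well they were read. The only TLR5 probe was well above background on 11 of 48 arrays, with a median spot intensity of 46 against a local background of 31, and it was not in the normalized table. The other 18 spots were well above background on all 48 arrays, or on 47 of them for TLR3 probe A_72_P471206.

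TLR2 was the only receptor whose gene value was DE between the lines in the main fit, which had no block. With slide or replicate number as a block, TLR1 and TLR10 were called as well. TLR2 was underexpressed in low RFI pigs on both of its probes, and the lines overlapped. In low RFI pigs the TLR2 gene value ran from 0.49 through a median of 0.78 to 1.59 on the HF diet and from 0.58 through 1.02 to 1.62 on the LF diet. In high RFI pigs it ran from 0.75 through 1.29 to 1.94 on HF and from 0.81 through 1.34 to 1.62 on LF. The groups overlapped, with 22 of 24 low RFI pigs under the median of the high RFI line. The line means were 0.96 ± 0.31 (SD, n = 24) and 1.28 ± 0.30 (SD, n = 24), a log2 difference of -0.32 (SE 0.09, adjusted P-value 0.023, FC -1.25). Probe A_72_P088356 gave -0.37 (SE 0.10, adjusted P-value 0.031) and probe O12067 gave -0.27 (SE 0.08, adjusted P-value 0.04). The difference was negative on 5 of 6 slides, from -0.53 to 0.24, and on each of 3 scan days, from -0.46 to -0.14. The TLR2 gene value stayed DE when any 1 of the 48 pigs was left out, with adjusted P-values from 0.0074 to 0.041.

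**Figure D1:**
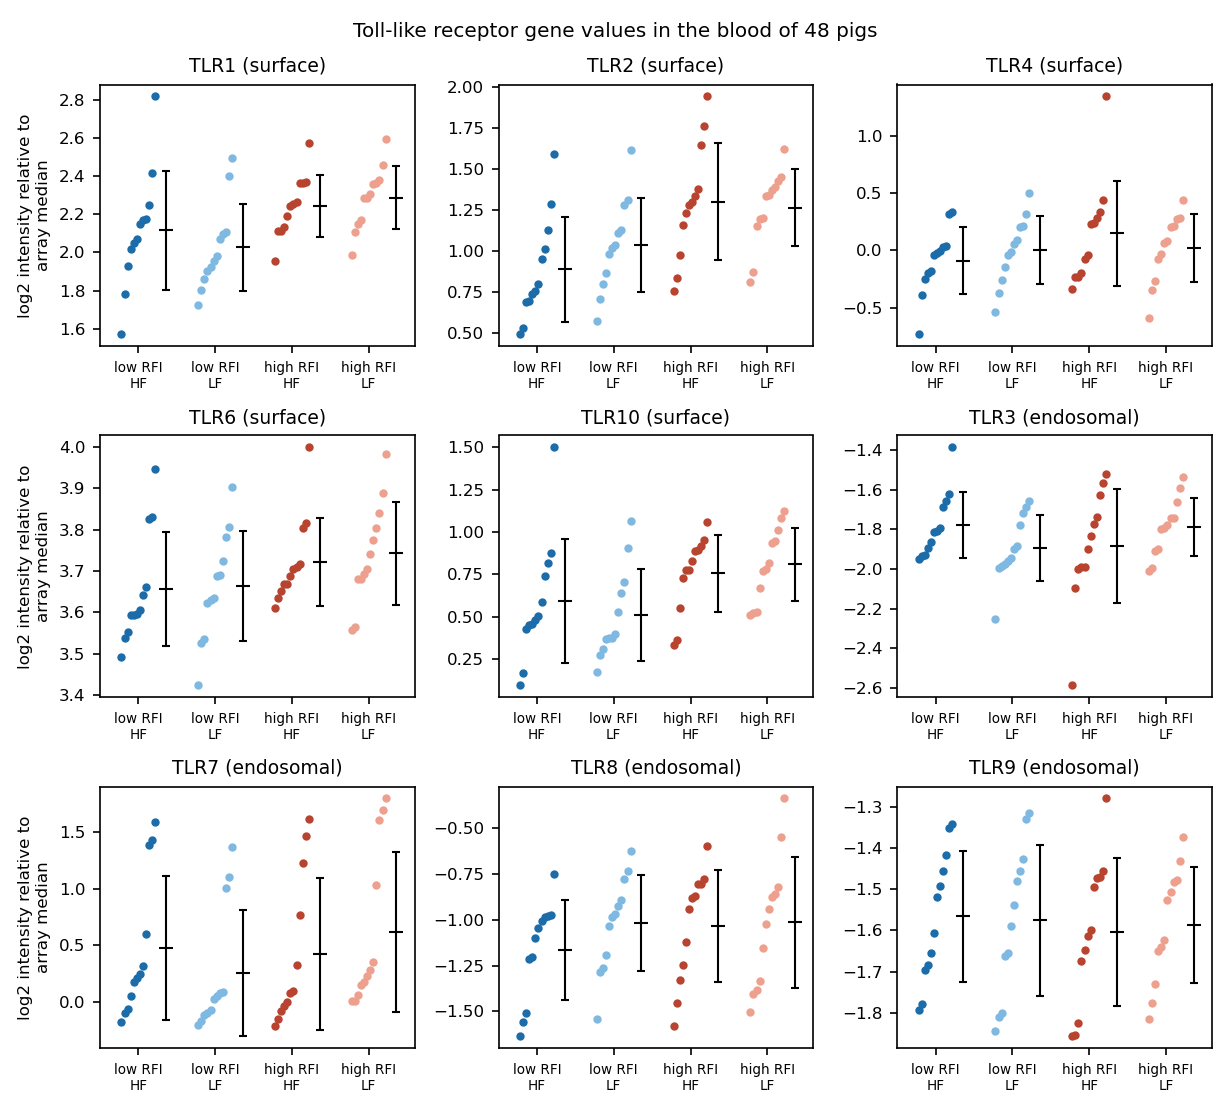
Gene values of 9 Toll-like receptors, as log2 intensity relative to the array median, in 12 pigs of each line and diet group (points, ordered by value within a group), with the group mean and SD in black beside them. TLR2 medians were 0.78 and 1.02 in low RFI pigs and 1.29 and 1.34 in high RFI pigs, and the TLR7 values spread upwards in 3 or 4 pigs of each group.

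TLR1, a partner of TLR2, lay lower in low RFI pigs on both probes, and 1 of them was DE. For probe O11996 the values in low RFI pigs ran from 1.73 through a median of 2.31 to 2.89 on HF and from 1.72 through 2.13 to 2.64 on LF. In high RFI pigs they ran from 2.19 through 2.42 to 2.73 on HF and from 2.15 through 2.48 to 2.76 on LF. The lines overlapped, and 20 of 24 low RFI pigs were under the high RFI median. The log2 difference was -0.23 (SE 0.07, adjusted P-value 0.04). The second probe, A_72_P077516, gave -0.16 (SE 0.07, adjusted P-value 0.29), and the mean of both gave -0.19 (SE 0.06, adjusted P-value 0.093). The TLR1 gene value was lower in low RFI pigs on 6 of 6 slides, and with slide as a block its adjusted P-value was 0.037.

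TLR10, an orphan member of the TLR1 group, has its gene next to TLR1 in the RefSeq Sscrofa11.1 gene table, and TLR6 lies on the other side of TLR1. Its single probe ran from 0.09 through a median of 0.49 to 1.50 in low RFI pigs on HF and from 0.17 through 0.39 to 1.07 on LF. In high RFI pigs it ran from 0.33 through 0.80 to 1.06 on HF and from 0.51 through 0.80 to 1.12 on LF. The log2 difference between lines was -0.23 (SE 0.08, 95% confidence interval -0.39 to -0.07), with a P-value of 0.0053 that did not pass the correction over all genes (adjusted P-value 0.1), and it was negative on 6 of 6 slides. With slide as a block the adjusted P-value was 0.0498 over all genes, just under the threshold, and 0.0573 over all probes. TLR10, not called without the block, was then called at gene level only. The highest TLR1 and TLR10 values of the 48 pigs, 2.82 and 1.50, both belonged to HF_RFIneg replicate 11. Without that pig the adjusted P-values for the line were 0.017 for TLR1 and 0.016 for TLR10, the lowest of the 48 fits that left out a pig. TLR1 was called in 2 of these fits, with adjusted P-values up to 0.14 (without HF_RFIneg replicate 2), and TLR10 in 1, with adjusted P-values up to 0.16 (without HF_RFIneg replicate 9).

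TLR4, the lipopolysaccharide receptor, did not pass the test on any of its 4 probes in the normalized table. Estimates were -0.26 for A_72_P444572 (adjusted P-value 0.36), -0.22 for A_72_P165431 (adjusted P-value 0.5), -0.14 for A_72_P444577 (adjusted P-value 0.65) and 0.10 for A_72_P419074 (adjusted P-value 0.82). In this order their median spot intensities were 2089.25, 583.5, 102.5 and 147.75. The positive estimate thus came from a dim probe, which had the same weight in the gene value as the bright ones. Another TLR4 spot, A_72_P547391, was well above background on 48 of 48 arrays but was not in the normalized table, and gave -0.24 (SE 0.11, P-value 0.035, adjusted P-value 0.5) in a fit over all non-control spots. The TLR4 gene value ran from -0.73 to 0.33 and from -0.54 to 0.50 in low RFI pigs on HF and LF, and from -0.34 to 1.34 and from -0.59 to 0.44 in high RFI pigs on HF and LF. The pig at 1.34, HF_RFIpl replicate 2, stood 0.84 above the next of the 48 pigs and was the highest on all 5 TLR4 spots. The line difference of the gene value was -0.13 (95% confidence interval -0.32 to 0.07) with this pig and -0.07 without it.

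TLR6, the other partner of TLR2, gave -0.08 (SE 0.05) on A_72_P088166 and -0.06 (SE 0.06) on O10727, neither DE. These probes did not vary together over the 48 pigs. After group means were removed, Pearson's r between them was -0.06, while it was 0.89 between the TLR1 probes, 0.85 between the TLR2 probes and 0.73 to 0.94 between the 4 TLR4 probes. Spot O10727 was very bright, with a median intensity of 166134 and a mean level at the 99.4th percentile of the spots in the normalized table, and whether it also reads another transcript was not tested. The TLR6 gene value, used in the surface class, the pairs and the most alike genes, is thus a mean of probes that did not vary together. Of the surface receptors, TLR5 gave values between -3.61 and -2.38 with a line estimate of 0.05 (SE 0.09) in the fit over all non-control spots.

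The endosomal receptors showed no line difference past the threshold. TLR3, which senses double-stranded RNA, gave a difference of -0.00011 (SE 0.06, 95% confidence interval -0.12 to 0.12). TLR9, which senses unmethylated CpG DNA, gave 0.02 (SE 0.05, 95% confidence interval -0.08 to 0.12). For these genes a line difference in spot reading as large as that of TLR2 lay outside the interval. Their spots were dim, with median intensities of 95.75 and 110.25 for the TLR3 probes and 118 for the TLR9 probe. Local backgrounds were 33, 31.5 and 32. Background was not subtracted from these readings, so the intervals do not bound the difference in RNA. TLR8 gave -0.07 (SE 0.09, 95% confidence interval -0.24 to 0.11) and TLR7 gave -0.16 (SE 0.18, 95% confidence interval -0.52 to 0.20), both sensors of single-stranded RNA. The TLR7 interval was the widest among the receptors and included the TLR2 estimate.

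**Figure D2:**
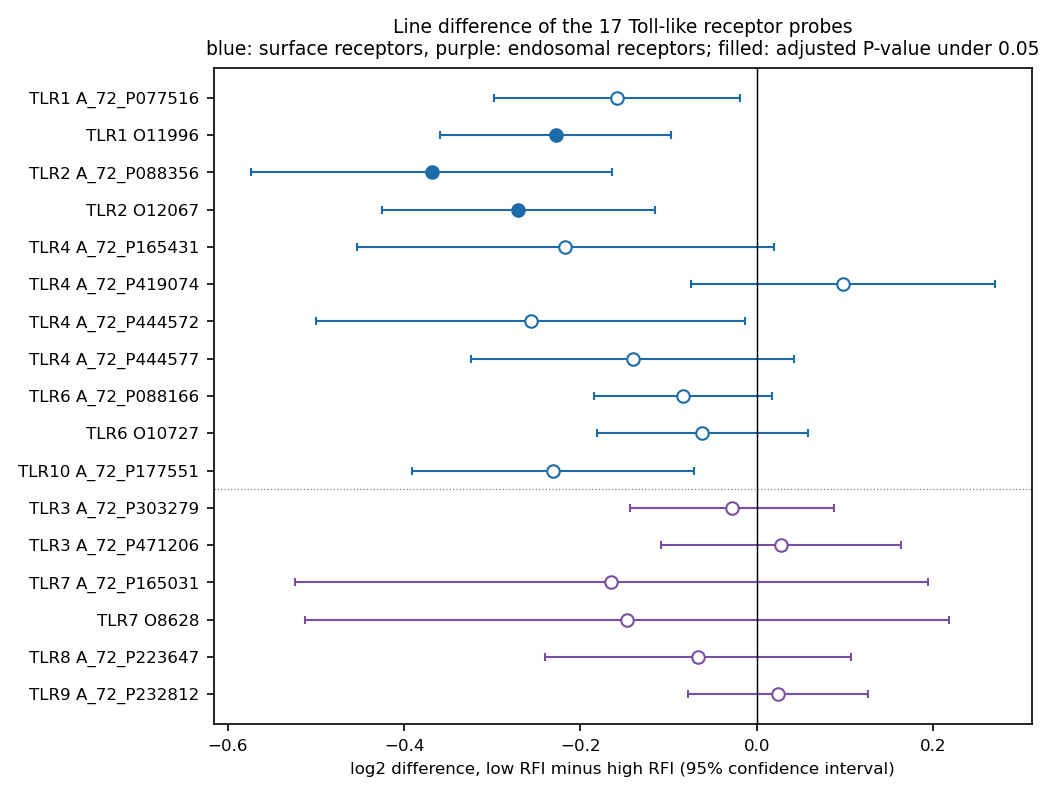
Log2 difference between low and high RFI pigs for the 17 probes in the normalized table, with 95% confidence intervals, surface receptors in blue above the dotted line and endosomal receptors in purple below it. Filled points, both TLR2 probes and TLR1 probe O11996, passed the adjusted P-value of 0.05, and 10 of 11 surface probes lay below 0.

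Over the receptors, 3 of 17 probes were DE between lines, all 3 lower in low RFI pigs, where 2.77% of all probes were DE and 1.44% were lower, and 1 of 9 gene values was, where 3.29% of all genes were. At an unadjusted P-value under 0.01 and an FC above 1.1, the criterion of the study methods, 4 of the 17 were past it, where 5.78% of all probes were. The probe calls changed with single pigs. When each pig was left out in turn, TLR2 probe A_72_P088356 was called in 43 of 48 fits, TLR2 probe O12067 in 26 and TLR1 probe O11996 in 25, and between 0 and 4 member probes were called in all. HF_RFIpl replicate 2 was the pig whose omission left O12067 with the highest adjusted P-value, 0.068. For O11996 that pig was HF_RFIneg replicate 7, with an adjusted P-value of 0.065. For A_72_P088356 it was HF_RFIpl replicate 12, with an adjusted P-value of 0.054.

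The surface and endosomal receptors were then set side by side. All 5 surface receptors with a gene value had a negative line estimate, with a median of -0.19 and a range from -0.32 to -0.07. Of the 4 endosomal receptors 3 had a negative estimate, with a median of -0.03 and a range from -0.16 to 0.02. Among all 10946 genes 36.1% of the estimates were negative and the median was 0.03. At probe level 10 of 11 surface probes and 4 of 6 endosomal probes were negative, against 41.4% of all probes. Averaged over the receptors of a class after each was centred on its mean over the 48 pigs, the surface level had group means of -0.10 in low RFI pigs on HF, -0.09 in low RFI pigs on LF, 0.10 in high RFI pigs on HF and 0.09 in high RFI pigs on LF. The endosomal level had group means of 0.00, -0.05, -0.02 and 0.07 in the same order. Surface means were thus ordered by line on both diets, and endosomal means were not. Group SDs ran from 0.12 to 0.22 for the surface level and from 0.12 to 0.18 for the endosomal level. The classes also differed in signal. Median intensity over local background was 2.7 to 5.0 for TLR3, TLR8 and TLR9 and 12 and 14 for the TLR7 spots. For surface probes other than TLR6 O10727 it ran from 3.1 to 59. The classes share pigs and some surface receptors varied together, and the difference between classes was not tested.

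Diet left the receptors without a call. Estimates of HF minus LF ran from -0.08 for TLR8 (95% confidence interval -0.26 to 0.09) to 0.02 for TLR1 (95% confidence interval -0.11 to 0.15). The lowest P-value was 0.34, no receptor had a P-value under 0.05, and limma called 0% of all genes, with 1.94% under an unadjusted P-value of 0.05. No interaction of line and diet was called either, for the receptors or for any of the 10946 genes, where 2.33% had an unadjusted P-value under 0.05. The lowest interaction P-value was 0.074 for TLR3, whose line difference was 0.11 on HF and -0.11 on LF (SE 0.08 each). For TLR2 the line difference was -0.41 on HF (SE 0.12, adjusted P-value 0.1) and -0.23 on LF (SE 0.12, adjusted P-value 0.69), and the interaction of -0.18 had a 95% confidence interval from -0.53 to 0.16. For TLR1 it was -0.13 on HF and -0.26 on LF, and for TLR10 -0.16 on HF and -0.30 on LF, with interaction P-values of 0.31 and 0.4. No receptor was DE within a single diet, where 0.904% of genes were on HF and 0.32% on LF.

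TLR7 varied more between pigs than any other receptor, with a within-group SD of 0.64 against 0.13 to 0.34 for the others. Its values fell in a dense set of 33 pigs from -0.21 to 0.36 and a looser set of 15 pigs from 0.60 to 1.79. The gap between them, 0.25 wide, was the widest in the ordered values but hardly wider than the next one of 0.24, inside the upper set. The upper set held 4 low RFI pigs on HF, 3 low RFI pigs on LF, 4 high RFI pigs on HF and 4 high RFI pigs on LF, and between 2 and 4 pigs of each slide. The same spread appeared on both TLR7 spots, which gave r = 0.98 over the 48 pigs and carry the same sequence. TLR8 is the neighbour of TLR7 on chromosome X in the RefSeq Sscrofa11.1 gene table. Its values ran from -1.64 to -1.05 in the 15 pigs of the upper TLR7 set and from -1.40 to -0.34 in the other 33 pigs, 27 of which were above -1.05. This is given as a description with no test, since the sets were made from the data. The correlation over all pigs is not given. It would mix the difference between these sets with the relation within each, and r within them had opposite signs. Within the upper set Pearson's r between TLR7 and TLR8 was -0.49 (permutation P-value 0.065, two-sided, 15 pigs) and Spearman's rho -0.34 (permutation P-value 0.21), and r was -0.61 without the 2 pigs farthest from the TLR7 median. Within the lower set r was 0.26 (permutation P-value 0.14, two-sided, 33 pigs) and rho 0.24 (permutation P-value 0.18), and r was 0.02 without the 2 farthest pigs. Neither relation passed the threshold within a set. These sets are not groups of the study.

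**Figure D3:**
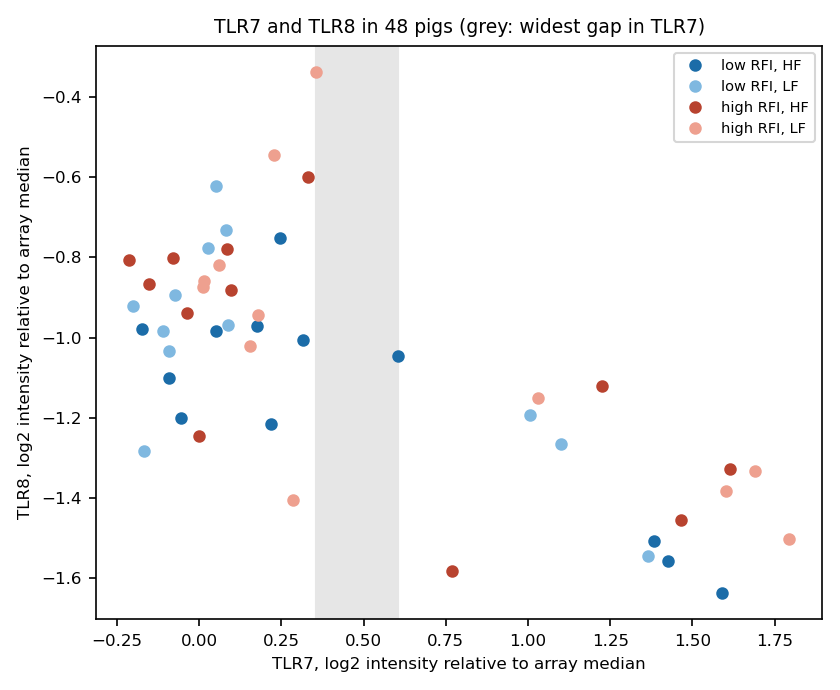
TLR8 against TLR7 in each of the 48 pigs, both as log2 intensity relative to the array median, coloured by line and diet, with the widest gap in TLR7 in grey. TLR8 ran from -1.64 to -1.05 in the 15 pigs to the right of the gap and from -1.40 to -0.34 in the 33 to the left of it, and all 4 groups were on both sides of it.

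Receptors were compared pair by pair over the 48 pigs after group means were removed, in 36 pairs with two-sided permutation tests within groups. TLR1 and TLR10 rose and fell together between pigs (r = 0.74, rho = 0.59, adjusted permutation P-values 1e-04 and 5e-04), with a raw P-value for r of 1e-05, the smallest the permutations can give. The value of r was 0.62 without the 2 pigs farthest from the TLR1 median, 0.66 without HF_RFIneg replicate 11, and 0.42 to 0.92 within the 6 slides. TLR2 and TLR4 did so too (r = 0.65, rho = 0.64, adjusted permutation P-values 1e-04 and 4e-04), with r = 0.63 without the 2 farthest pigs and 0.52 to 0.92 within slides. TLR1 and TLR2 were related more loosely (r = 0.41, rho = 0.52, adjusted permutation P-values 0.033 and 0.0031, raw P-values 0.0055 and 3e-04), with r = 0.44 without the 2 farthest pigs and from -0.00044 to 0.63 within slides. TLR1 and TLR9 ran in opposite directions (r = -0.47, rho = -0.39, adjusted permutation P-values 0.0076 and 0.048, raw P-values 0.0011 and 0.0081), with r = -0.42 without the 2 farthest pigs and from -0.58 to 0.05 within slides. TLR6 and TLR10 gave r = 0.52 and rho = 0.43 (adjusted permutation P-values 0.003 and 0.029, raw P-values 3e-04 and 0.004), r = 0.45 without the 2 farthest pigs, and from -0.06 to 0.80 within slides, and with single TLR6 probes r was 0.41 for A_72_P088166 and 0.31 for O10727. All gene values of a pig come from the same array and share its centring. Of the 28 pairs without TLR7 these 5 passed the correction on both coefficients, and the other 23 passed on neither.

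**Figure D4:**
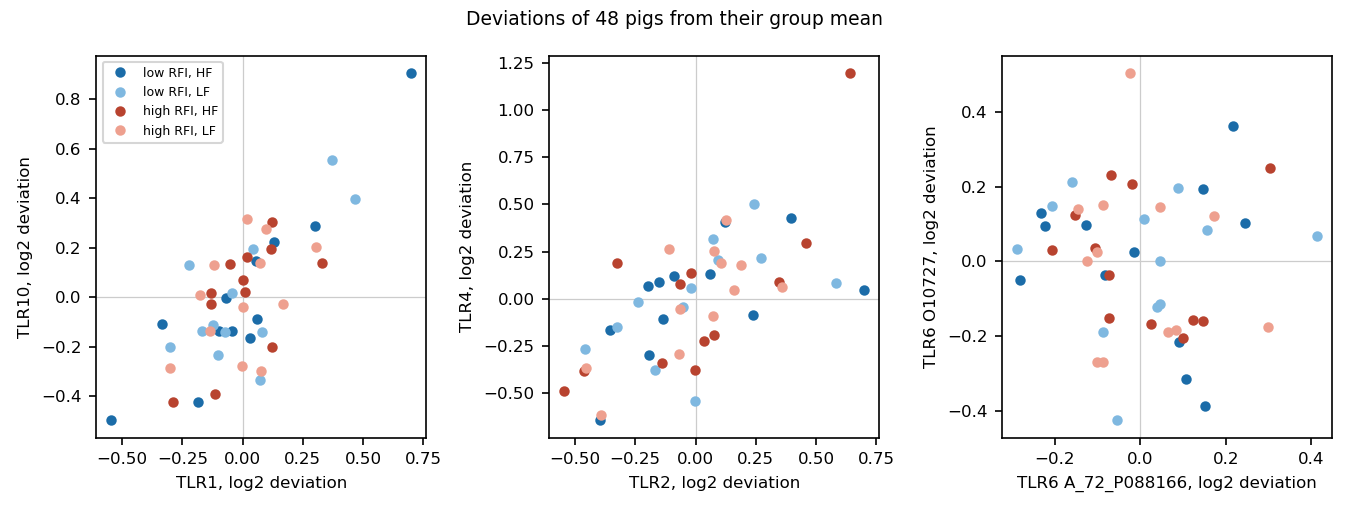
Deviation of each of the 48 pigs from its group mean, in log2 intensity, for TLR10 against TLR1, TLR4 against TLR2, and TLR6 probe O10727 against TLR6 probe A_72_P088166. The points of the first panels rise together (r = 0.74 and 0.65), those of the TLR6 probes do not (r = -0.06).

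The genes most like each receptor across the 48 pigs, by Pearson's r after group means were removed, were read from all named genes as a description. For TLR1 they were BLNK, an adaptor of the B cell receptor (r = 0.88), LOC100153196 (r = 0.88) and STX7, a syntaxin of late endosomes (r = 0.86). For TLR10 they were STX7 (r = 0.78), VPREB3, a B lineage gene (r = 0.78), and C16ORF74 (r = 0.77). For TLR2 they were TGFA (r = 0.86), the growth factor TGF alpha, NUMB (r = 0.85), an inhibitor of Notch, and LOC100511550 (r = 0.85). For TLR4 they were SOCS3 (r = 0.78), a feedback inhibitor of cytokine signalling, BASP1 (r = 0.73) and LOC780419 (r = 0.72). For TLR3 they were PLA2G7 (r = 0.75), a secreted phospholipase of macrophages, EPHX2 (r = 0.66) and LOC767627 (r = 0.66). For TLR6 they were TRPV6, NMNAT1 and LOC100521312 (r = 0.74, 0.73 and 0.73), for TLR9 LOC100515336, LRRTM4 and FUT11 (r = 0.76, 0.74 and 0.69), and for TLR8 APCDD1, GM2058 and LOC100155631 (r = 0.55, 0.54 and 0.54). For TLR7 they were ST3GAL5, CLCN4 and TMEM2, given without r because of its separate sets.

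Of 40 genes around the receptors (co-receptors, adaptors, kinases, chaperones and transcription factors), 35 had a gene value. Between the lines 1 of the 35 was higher and 1 was lower in low RFI pigs, where 1.65% of all genes were higher and 1.64% lower, and the median estimate was 0.002 against 0.03 for all genes. The lower gene was CD14, the co-receptor that hands lipopolysaccharide to TLR4 and lipopeptides to TLR2. In low RFI pigs it ran from 0.67 through a median of 1.45 to 2.36 on HF and from 1.45 through 1.83 to 2.91 on LF. In high RFI pigs it ran from 1.30 through 2.10 to 3.30 on HF and from 1.26 through 2.10 to 2.82 on LF. The groups overlapped, and the log2 difference was -0.47 (SE 0.13, adjusted P-value 0.037), negative on 5 of 6 slides, from -0.88 to 0.13. Its 3 probes gave -0.50, -0.42 and -0.49. Within a diet the difference was -0.77 on HF (SE 0.19, adjusted P-value 0.032) and -0.18 on LF (SE 0.19, adjusted P-value 0.85), and the interaction of -0.59 was not called (P-value 0.033, adjusted P-value 0.88). CD14 was called in 32 of the 48 fits that left out a pig, with the highest adjusted P-value, 0.063, without HF_RFIpl replicate 12.

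The higher gene was TRAF6, the ligase downstream of MYD88. On its single probe in the normalized table, A_72_P223847, it ran from 1.65 through a median of 2.16 to 2.63 in low RFI pigs on HF and from 1.54 through 2.34 to 2.47 on LF. In high RFI pigs it ran from 0.01 through 0.84 to 2.14 on HF and from -0.08 through 1.55 to 2.35 on LF. None of the 24 low RFI pigs (0) was under the high RFI median, and the SD was 0.30 in the low RFI line and 0.88 in the high RFI line. The log2 difference was 1.06 (SE 0.18, adjusted P-value 0.00022), and TRAF6 was called in all 48 fits that left out a pig. Within a diet it was 1.24 on HF (adjusted P-value 0.0091) and 0.88 on LF (adjusted P-value 0.13), with an interaction P-value of 0.33. A second TRAF6 spot, O8523, was well above background on 48 of 48 arrays at a median spot intensity of 87 but was not in the normalized table. There the mean of the low RFI line was -1.97 ± 0.17 (SD, n = 24) and that of the high RFI line was -2.03 ± 0.26 (SD, n = 24), and the log2 difference was 0.06 (SE 0.06, P-value 0.36) in the fit over all non-control spots. The TRAF6 difference thus stood on 1 of 2 spots, the brighter one, with a median spot intensity of 1384 against 87.

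Other co-receptors did not pass the correction. Their values were CLEC7A, the beta-glucan receptor that acts with TLR2, at -0.45 (adjusted P-value 0.077), LY86 and CD180, which pair with each other, at -0.24 (adjusted P-value 0.09) and -0.19 (adjusted P-value 0.46), LY96, the TLR4 co-receptor, at -0.22 (adjusted P-value 0.14), and CD36, a scavenger receptor that acts with TLR2, at 0.0054 (adjusted P-value 0.99). The shared adaptor MYD88 was at -0.07 (adjusted P-value 0.81), the TLR3 adaptor TICAM1 at 0.07 (adjusted P-value 0.92) and the kinases IRAK1 and IRAK4 at 0.03 and -0.05. The inhibitory IRAK3 was at 0.10 (adjusted P-value 0.26) and the transcription factor IRF5 at -0.17 (adjusted P-value 0.19).

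**Figure D5:**
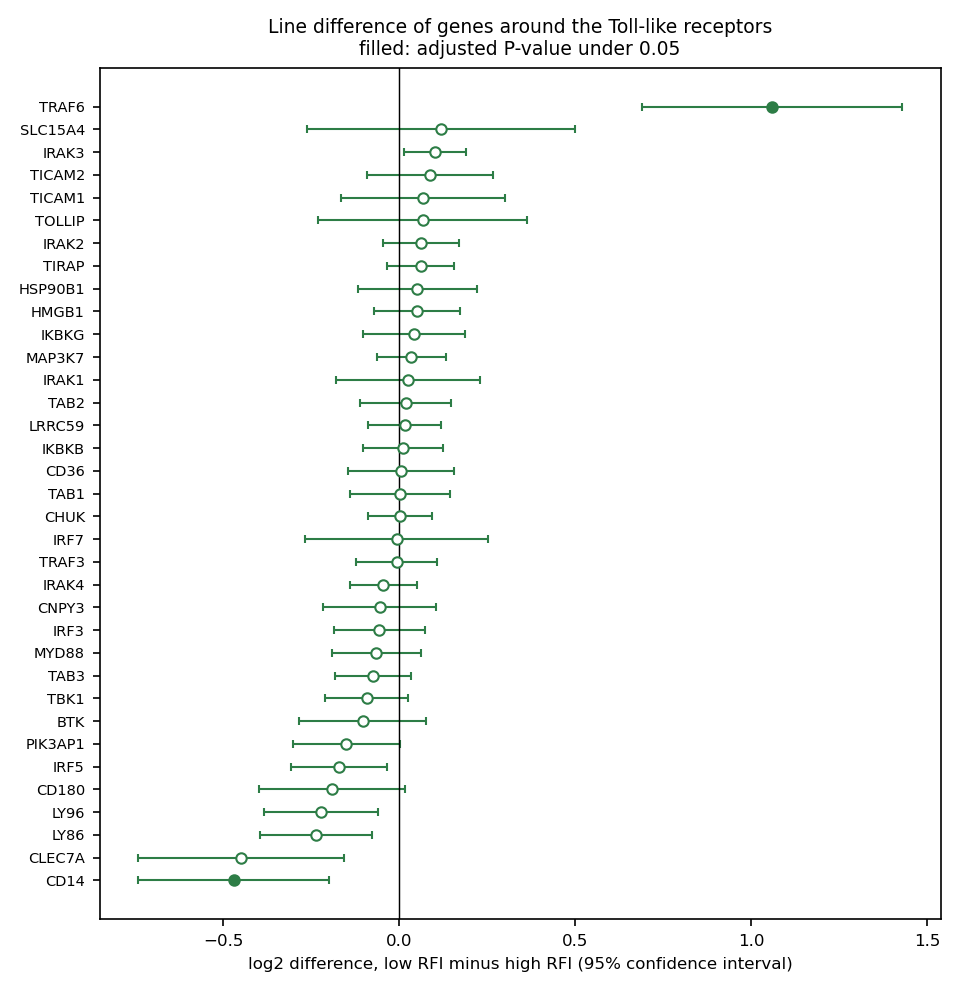
Log2 difference between low and high RFI pigs, with 95% confidence intervals, for the 35 genes around the receptors that had a gene value. The filled points are TRAF6 at 1.06 and CD14 at -0.47, and the other 33 did not pass the adjusted P-value of 0.05.

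Markers of blood cell types were read on the same scale. Of the B cell markers 7 of 10 had a gene value, and 4 of these 7 were lower in low RFI pigs. Among all genes 1.64% were lower and 1.65% higher, the background for each marker count here. The lower B cell markers included MS4A1 (-0.36, adjusted P-value 0.0012), BLNK (-0.23, adjusted P-value 0.022) and FCRLA (-0.30, adjusted P-value 0.023). The summed B cell level, on a log2 scale, ran from 4.36 to 5.50 and from 4.15 to 5.20 in low RFI pigs on HF and LF, and from 4.74 to 5.35 and from 4.80 to 5.21 in high RFI pigs. Of 7 monocyte markers measured, CD14 was lower, and the summed level ran from 3.53 to 4.56 and from 3.86 to 4.76 in low RFI pigs and from 3.95 to 4.79 and from 3.93 to 4.89 in high RFI pigs, again on HF and LF. Of 7 neutrophil markers measured, CXCR2 was lower (-0.42, adjusted P-value 0.039), and the summed level ran from 6.19 to 8.39 and from 6.58 to 8.57 in low RFI pigs and from 7.11 to 8.95 and from 6.54 to 8.31 in high RFI pigs. Of 3 plasmacytoid dendritic cell markers measured, TCF4 (-0.21, adjusted P-value 0.016) and BLNK were lower, with summed levels from 2.32 to 3.25 and from 2.55 to 3.08 in low RFI pigs and from 2.67 to 3.09 and from 2.80 to 3.18 in high RFI pigs. The T cell kinase LCK was higher in low RFI pigs (0.21, adjusted P-value 0.034), as the only DE gene of 7 T cell markers. The erythrocyte anion exchanger SLC4A1 was higher (0.26, adjusted P-value 0.04), as the only DE gene of 8 erythroid markers. All 7 T cell and all 8 erythroid estimates were positive. Negative estimates were found for 6 of 7 B cell, 5 of 7 monocyte and 5 of 7 neutrophil markers, against 36.1% of all genes. Within a diet SLC4A1 differed by 0.01 on HF (adjusted P-value 0.99) and by 0.50 on LF (adjusted P-value 0.011), and the interaction of -0.48 was not called (P-value 0.0021, adjusted P-value 0.88). MS4A1 differed by -0.39 on HF (adjusted P-value 0.037) and by -0.32 on LF (adjusted P-value 0.16), with an interaction P-value of 0.61. The summed T cell level ran from 5.38 to 5.99 and from 5.36 to 5.99 in low RFI pigs on HF and LF. In high RFI pigs it ran from 5.27 to 5.77 and from 5.20 to 6.08. The summed erythroid level ran from 9.78 to 10.93 and from 9.90 to 11.15 in low RFI pigs. In high RFI pigs it ran from 9.90 to 11.05 and from 9.78 to 10.76. No marker of 5 NK cell or 3 platelet genes measured was DE. The part of the cell makeup in the line differences of TLR2, TLR1, TLR10 and CD14 was not tested.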

How the data were processed

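Total RNA of whole blood from 48 pigs was labelled with Cy3 and hybridized to custom 8x60K Agilent arrays, scanned with Feature Extraction 10.7.3.1 per the file headers. The deposited intensity values are the scanner's spot readings, not normalized. The authors' deposited normalized table holds log2 values, which equal log2 of the median spot intensity minus the array median over 37113 retained spots on 47 of 48 arrays (within 1e-06). The column of HF_RFIpl replicate 1, called Blood_41, did not and was rebuilt from its scanner file. The submitters' processing notes name R 3.0.2.

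Spots were taken by gene name. Gene values are means over the retained probes of a name (19765 probes, 10946 genes). Group means were fitted with limma 3.58.1 in R 4.3.3, with contrasts for line, diet, interaction and line within diet, moderated errors and Benjamini-Hochberg correction over all probes or all genes, and the adjusted P-value threshold was 0.05. Confidence intervals use 44 residual degrees of freedom. Permutation tests used 100000 draws within groups (scipy 1.17.1). The fits were tested on simulated data. Named genes were all receptors, listed pathway and marker genes past the threshold for the line, and the 3 genes most correlated with each receptor; other genes and the second TRAF6 spot were picked after their values were seen. Receptors and lists were chosen with earlier results of these data known. The values of 1 listed marker gene are not reported here. The number of arrays limits precision. The labels name no shared origin for replicate numbers, and pigs were treated as separate animals. No genome coordinates are given, and the RefSeq Sscrofa11.1 gene table served for which genes neighbour each other. Alternatives were an analysis of variance, other background corrections and scalings, other probe filters, slide or replicate as a block, a trended prior, the brightest probe, the methods' criterion (P-value under 0.01 and FC above 1.1), and pigs left out.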

Additional observations from a re-analysis of the deposited data

How the results depend on the processing

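The 3 probe calls between lines became 1 over all non-control spots and 0 with column Blood_41 as deposited, and ran from 0 to 4 as each pig was left out, an alternative chosen after seeing the data. The 1 receptor gene value called became 2 with the 75th percentile of the background-corrected signal, with normexp and quantile normalization and with the brightest probe, 3 with slide as a block and 3 with a replicate block, 0 with Blood_41 as deposited, and 1 to 3 as each pig was left out. The pathway calls went from 2 to 1 with Blood_41 as deposited and to 3 with the 75th percentile, normexp and quantile normalization, the replicate block and the brightest probe. With the replicate block, TLR1 was at -0.19 (adjusted P-value 0.0147) and TLR10 at -0.23 (adjusted P-value 0.0378), and calls over all genes went from 360 to 551. No label ties same-numbered pigs, so the main fit did not take the numbers as a block. Yet r between them was over 0.1 in 44 of 72 pairs (median 0.20, against 0.09 for other pigs of the slide and -0.04 across slides). The labels cannot settle whether same-numbered pigs share an origin. Signs turned with Blood_41 as deposited for TLR9 (gene and probe -0.15), TLR3 probe A_72_P471206 (-0.15), TLR4 probe A_72_P419074 (-0.055), TLR6 probe O10727 (0.19), TLR8 by diet (0.064) and the TLR3 interaction (-0.15), and for TLR3, whose estimate was 0.00, without HF_RFIpl replicate 1 (0.012) and with the brightest probe (0.028). The column as deposited holds 1 same value in 37090 of 37113 rows, which shows the cause of its changes, while the causes of the others were not tested. Over 28 results, 294 of 318 values kept their direction and their side of the threshold. The median line estimate of all genes stayed between 0.02 and 0.03 except -0.08 with Blood_41 as deposited. With the methods' criterion the 17 probes held 4 line calls. No receptor was called for diet or interaction under the settings run for them, which left out HF_RFIpl replicate 1 but no other pig. Signal limits TLR5, near background, and to a lesser degree TLR3, TLR8 and TLR9. The spread between pigs limits TLR7.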
